A study of Mus musculus with 8 samples.

Results

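The peaks described here are R-loop peaks that lay inside protein-coding genes of 300 kb or more in mouse muscle stem cells (MuSCs). DNA-RNA immunoprecipitation sequencing (DRIP-seq) with the S9.6 antibody, which binds RNA:DNA hybrids, was performed on cultured MuSCs of 2 genotypes. Both genotypes were on a C57BL/6 background and carried Pax7CreERT, a Cre recombinase that tamoxifen activates in Pax7-expressing cells, and mice were 8 to 12 weeks old when tamoxifen was given. Ctrl cells had wild-type Kmt5b alleles and Kmt5b sKO cells had floxed alleles of Kmt5b, also called Suv420h1 or Suv4-20h1, which encodes a methyltransferase of histone H4 lysine 20. Each genotype had 3 S9.6 libraries, which the study's methods call biological replicates, and 1 input library that was not used here.

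A peak was a member when it was autosomal, had a mean score over 30 across the 6 S9.6 libraries, carried the name of a protein-coding gene of 300 kb or more, had its centre inside that gene, lay over 1 kb from the transcription start site (TSS) and lay over 3 kb from the 3′ end of the gene. The score of a peak is its summed S9.6 signal after scaling by Drosophila spike-in reads, rounded to a whole number, so it is a normalized value and not a read count. There were 2540 members in 352 genes, out of 28265 union peaks in the table and 25815 autosomal peaks with a mean score over 30. Of 2738 autosomal peaks carrying the name of such a gene, 2717 met the rules on position and 177 of those had a mean score of 30 or less. The annotation GENCODE vM21 held 541 autosomal protein-coding genes of 300 kb or more, of which 350 held a member and 191 held none.

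An R-loop forms when a nascent transcript pairs with its template strand and the other DNA strand is displaced. RNA polymerase needs hours to cross a very long gene, so transcription there can still be running when the cell replicates its DNA. Several very long genes lie at common fragile sites, where chromosomes tend to break under replication stress.

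In Kmt5b sKO cells 739 members rose and 27 fell, where 32.9% of all tested peaks rose and 0.883% fell. The gains were most frequent in long genes that held few peaks. Of the 122 genes with 1 member 79.5% rose, against 36.5% of shorter genes with 1 peak and 27.5% of all genes tested. Of these 122 members, 58 reached the mean score of 30 through Kmt5b sKO alone. None of the 41 genes with 20 or more members was called higher as a whole, nor was any of 16 shorter genes with as many peaks. Members along the gene rose at similar rates from the start to the 3′ end. Examples, which were picked for their called peaks, ranged from Pcdh15, with 6 of 6 members higher, to Dpp6, with 3 of 13 members lower.

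The largest gains and the largest losses that overlapped no exon are shown first as sequence, so that the DNA under both kinds of peak can be compared. Each is the central 300 bases of its peak, written 5′ to 3′ on the sense strand of the host gene from the GRCm38 reference. Capitals mark GGGG or CCCC and longer runs of them, and 6 or more repeats of GA. The repeat CACACACACACA and runs of 10 A, with their reverse complements, were also searched and had no match in these windows.
Zfp697 (higher in Kmt5b sKO), chr3:98406051-98406350, + strand: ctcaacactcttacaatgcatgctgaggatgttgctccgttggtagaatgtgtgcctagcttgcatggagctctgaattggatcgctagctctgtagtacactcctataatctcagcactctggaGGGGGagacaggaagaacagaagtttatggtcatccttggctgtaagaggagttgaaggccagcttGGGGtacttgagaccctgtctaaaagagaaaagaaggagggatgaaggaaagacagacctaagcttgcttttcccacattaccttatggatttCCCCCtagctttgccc
A830018L16Rik (higher in Kmt5b sKO), chr1:11916351-11916650, + strand: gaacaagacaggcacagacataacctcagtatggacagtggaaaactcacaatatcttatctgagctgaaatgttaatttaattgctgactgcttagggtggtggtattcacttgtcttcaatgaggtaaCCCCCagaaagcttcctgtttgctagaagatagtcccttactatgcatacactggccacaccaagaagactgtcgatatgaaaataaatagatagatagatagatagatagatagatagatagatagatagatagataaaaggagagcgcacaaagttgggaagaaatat
Agbl1 (higher in Kmt5b sKO), chr7:77120751-77121050, + strand: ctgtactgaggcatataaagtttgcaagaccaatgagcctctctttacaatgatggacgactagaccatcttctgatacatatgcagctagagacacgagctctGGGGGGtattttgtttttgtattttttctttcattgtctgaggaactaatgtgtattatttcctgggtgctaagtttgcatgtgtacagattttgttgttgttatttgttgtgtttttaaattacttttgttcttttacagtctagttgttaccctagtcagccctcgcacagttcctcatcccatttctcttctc
Pard3 (lower in Kmt5b sKO), chr8:127144651-127144950, + strand: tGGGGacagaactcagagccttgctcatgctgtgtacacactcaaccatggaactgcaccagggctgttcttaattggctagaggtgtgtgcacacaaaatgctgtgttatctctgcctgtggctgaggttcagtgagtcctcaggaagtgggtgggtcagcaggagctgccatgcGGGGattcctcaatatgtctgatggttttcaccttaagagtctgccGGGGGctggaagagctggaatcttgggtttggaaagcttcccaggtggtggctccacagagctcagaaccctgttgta
Fto (lower in Kmt5b sKO), chr8:91412651-91412950, + strand: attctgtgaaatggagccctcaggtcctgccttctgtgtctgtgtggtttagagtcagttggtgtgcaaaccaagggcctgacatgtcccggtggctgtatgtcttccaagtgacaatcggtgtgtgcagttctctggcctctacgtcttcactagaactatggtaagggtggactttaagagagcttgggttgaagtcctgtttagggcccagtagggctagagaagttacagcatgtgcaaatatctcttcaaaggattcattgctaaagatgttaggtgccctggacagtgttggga
Sorcs2 (lower in Kmt5b sKO), chr5:36183651-36183950, - strand: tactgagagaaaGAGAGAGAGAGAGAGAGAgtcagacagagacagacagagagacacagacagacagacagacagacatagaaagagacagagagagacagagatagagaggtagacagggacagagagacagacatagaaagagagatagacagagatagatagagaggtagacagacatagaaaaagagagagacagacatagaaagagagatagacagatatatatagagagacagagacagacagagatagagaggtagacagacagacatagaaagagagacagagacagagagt

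Of the 3 gained windows, Zfp697 held 2 runs of G and 1 run of C, A830018L16Rik held 1 run of C and Agbl1 held 1 run of G. Among the lost windows, Pard3 held 3 runs of G, Fto held no match, and Sorcs2 consisted of soft-masked repeat sequence over 100% of its bases. Over the central 300 bases of all members, GGGG or CCCC occurred in 66.0%, against 67.8% of all tested peaks. Runs of 10 A or 10 T (AAAAAAAAAA or TTTTTTTTTT) occurred in 12.8% of members and in 14.8% of all tested peaks. Within the members, they occurred in 22.2% of those called higher, 9.13% of those not called and 0% of the 27 called lower. These runs also went with peak length, at 29.1% of members of 200 to 1200 bp and 4.65% of those of 6000 bp or more. Over all tested peaks the shares at these lengths were 30.3% and 5.76%. Members called higher had a median length of 1400 bp and those not called 3000 bp, and the part of length was not tested. CACACACACACA or TGTGTGTGTGTG occurred in 4.96% of members and 4.55% of all tested peaks, and GAGAGAGAGAGA or TCTCTCTCTCTC in 2.01% and 2.05%. A match describes the letters of the window and no more.

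The gene models behind the rule differed between annotations. In the table Galnt2, which encodes an enzyme that starts mucin-type O-glycosylation, spanned 4435 kb, and Fgfr2, a receptor for fibroblast growth factors, spanned 2961 kb. RefSeq gave them 114.3 kb and 104.4 kb. These 2 models held 177 members, and 154 of those overlapped another protein-coding gene, so their signal need not belong to Galnt2 or Fgfr2. RefSeq matched 349 of the 352 genes, and 17 of these, with 246 members, had a RefSeq span under 300 kb. Zfp697, with 371.4 kb in the table and 49989 bp in RefSeq, was among them. With members kept only in genes whose RefSeq span was 300 kb or more, 676 members rose and 26 fell.

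Across the members, S9.6 signal rose in the median peak. The median score was 59, 69 and 60 in the Ctrl libraries, in order of replicate number, and 80, 85 and 82 in the Kmt5b sKO libraries. Ctrl and Kmt5b sKO did not overlap, and the ratio of the means was 1.31 (exact permutation test, two-sided, p = 0.1, the smallest that 3 against 3 libraries allow). The mean score was 124.5, 150.1 and 125.1 in Ctrl and 145.3, 153.2 and 147.5 in Kmt5b sKO, and here Ctrl replicate 2 lay inside the Kmt5b sKO range. The ratio of mean scores was 1.12 (exact p = 0.3). The median thus shifted more than the mean. More cells carrying an R-loop and more signal per cell cannot be told apart in these bulk libraries.

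Each peak was tested with limma on log2(score + 1) over all 25815 tested peaks, and calls required a Benjamini-Hochberg adjusted p under 0.1 with more than 1.5-fold change. By this rule 739 members (29.1%) rose, against 32.9% of all tested peaks, and 27 fell, against 0.883% of all tested peaks. The share of members that rose was therefore near the background and slightly below it. The median log2 fold change was 0.29 over members, 0.35 over all tested peaks and 0.25 over 15726 peaks of shorter protein-coding genes chosen by the same rules on position, of which 22.7% rose. All Kmt5b sKO libraries lay above all Ctrl libraries in 917 members (36.1%), against 41.5% of all tested peaks, and 658 of these were among the 739. All Kmt5b sKO libraries lay below all Ctrl libraries in 96 members (3.78%), against 3.81% of all tested peaks, and 20 of these were among the 27. When each library was centred at its own median peak, 209 members rose and 333 fell, against 10.4% and 12% of all tested peaks. With libraries set to the same total, 457 rose and 94 fell (21.6% and 3.12% of all tested peaks), and after quantile normalization 153 rose and 252 fell (8.02% and 7.7%).

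Ctrl replicate 2 had the highest level of the Ctrl libraries, with a summed member score of 381308 against 316265 and 317741. Without it 6 members were called lower, 5 of them among the 27, so most losses rested on this library. Of the 10 MuSC marker genes searched, 5 carried a union peak (Pax7, Myod1, Itga7, Sdc4 and Des), and among markers of other cells Pecam1 of endothelial cells was the only 1 of 13 that did. S9.6 signal is not expression, and Pax7 carried 9 peaks.

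The 352 genes had a total length of 212.2 Mb and held 11.97 members per Mb, which covered 4.95% of their length. Gene length and the number of members had a Spearman rho of -0.02 across the 352 genes, which are not independent replicates. Galnt2 with 126 members and Fgfr2 with 51 were followed by Pde4d with 48, Rbms3 with 40, Exoc4 with 37, Slc9a9 with 36, Lama2 with 35 and Msi2 with 34. Pde4d encodes a cAMP phosphodiesterase, Rbms3 and Msi2 encode RNA-binding proteins, Exoc4 a subunit of the exocyst, Slc9a9 a sodium/proton exchanger of endosomes and Lama2 the laminin chain of the muscle basement membrane. Peaks covered 64.8% of Msi2 and 20.4% of Pde4d, but 0.53% of Pcdh15, which is longer than both. Of the genes, 122 held a single member.

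Scores were also summed over the peaks of each gene and tested with limma over all 6198 protein-coding genes that held such a peak. On the summed score 193 of the 352 long genes rose (54.8%), against 27.5% of all genes tested, and 0 fell, against 0.323%. Of the 193, 97 held a single member. Among genes with a single peak, 47.5% of long and 12.4% of shorter genes reached a mean score over 30 through Kmt5b sKO alone. The level filter thus enters this contrast, and its part was not tested for all genes. Without the 1.5-fold rule, 6 long genes were lower and 246 higher at a limma adjusted p under 0.1, the same counts as at an unadjusted p under 0.05. With the 1.5-fold rule kept and the variance of each gene alone, 0 fell and 161 rose, against 0 and 193 in the main fit. The median log2 fold change was 0.69 over the long genes and 0.31 over all genes. At the level of single peaks, 300 genes held at least 1 member that rose, 20 held at least 1 that fell, and 15 held both. After centring on the median peak, 87 long genes rose and 14 fell, against 7.34% and 9.83% of all genes. Of the genes just under the threshold of 300 kb, Myo1d (297.9 kb, log2 fold change 0.73) was called higher on the summed score, and Kiaa1328 (298.3 kb, 0.23) and Akap13 (299.1 kb, 0.23) were not. Just over it, Pam (300.5 kb, 0.61), Ranbp17 (302.0 kb, 1.13) and Prr16 (302.3 kb, 1.06) were all called higher. The number of peaks differed as well, with 15 in Myo1d, 14 in Kiaa1328 and 25 in Akap13. Pam held 9, Ranbp17 held 2 and Prr16 held 1. The single peak of Prr16 had Ctrl scores of 23, 25 and 27 and passed the level filter through Kmt5b sKO alone. In these genes, length was not tested apart from the number of peaks.

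The change of a gene followed the number of peaks it held. Genes were placed in 5 classes by their number of members, and this comparison was chosen after seeing the data. Among the 122 genes with 1 member 79.5% rose on the summed score, and among the 77 with 2 to 3 members 76.6% did. The share was 47.1% of 68 genes with 4 to 8 members, 11.4% of 44 genes with 9 to 19 and 0% of 41 genes with 20 or more. The median log2 fold change fell in the same order, from 1.01 and 0.90 through 0.50 and 0.19 to 0.12. Across the 352 genes the number of members and the log2 fold change of the summed score had a Spearman rho of -0.67. Genes with few members also had low scores in Ctrl, with a median summed score of 30.7 for 1 member and 3644 for 20 or more.

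**Figure D1:**
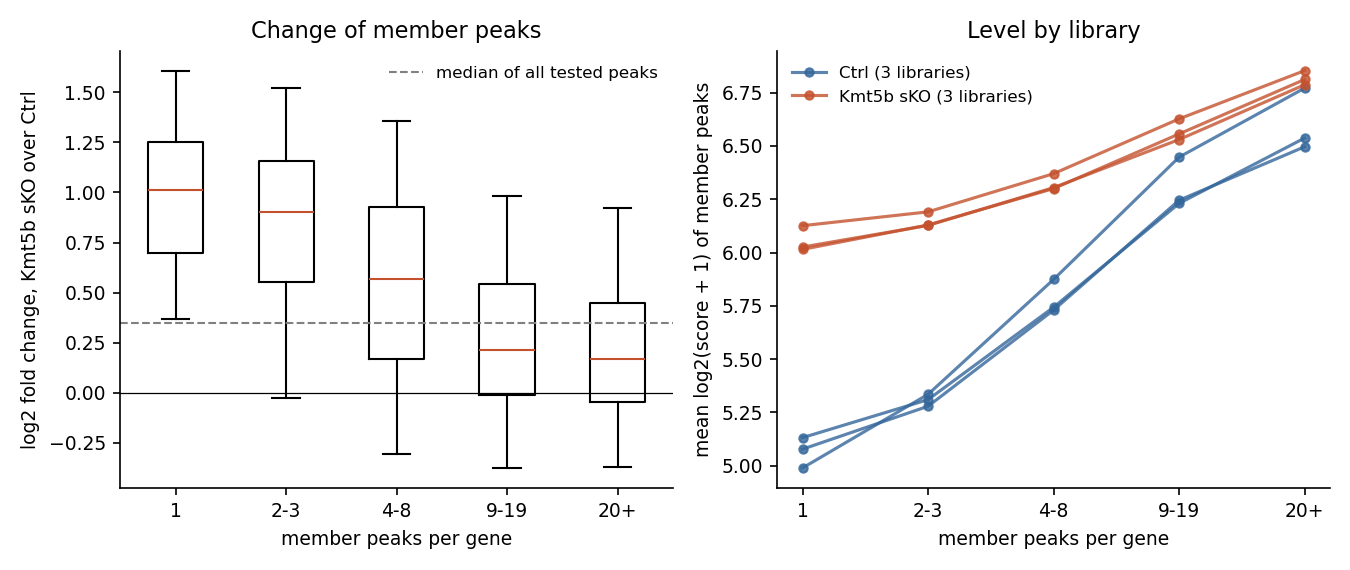
Left, log2 fold change of single member peaks (Kmt5b sKO over Ctrl) by the number of members in the host gene; boxes give the quartiles with the median in red, whiskers the 5th to 95th percentile, and the dashed line the median of all tested peaks. Right, mean log2(score + 1) of the same peaks in each of the 3 Ctrl (blue) and 3 Kmt5b sKO (red) libraries: the genotypes are farthest apart for genes with 1 member, where Ctrl libraries lie between 4.99 and 5.13 and Kmt5b sKO libraries between 6.01 and 6.13.

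The same comparison was made with 1 value per library. In genes with 1 to 3 members, the mean log2(score + 1) of members was 5.20, 5.20 and 5.24 in Ctrl and 6.09, 6.17 and 6.08 in Kmt5b sKO. In genes with 20 or more members it was 6.50, 6.77 and 6.54 in Ctrl and 6.79, 6.85 and 6.81 in Kmt5b sKO. Neither class had overlapping groups. The difference between the classes was -1.30, -1.57 and -1.30 in Ctrl and -0.70, -0.69 and -0.73 in Kmt5b sKO, so the genotypes differed by 0.68 (exact permutation test, two-sided, p = 0.1, the smallest possible). This was 0.59 when Ctrl replicate 2 was left out.

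Genes with few members also had shorter peaks, and the comparison was repeated at matched peak length. The median peak length was 1200 bp in genes with 1 member and 3000 bp in genes with 20 or more. Among peaks of 1400 to 2000 bp, 82.9% of 35 members in genes with 1 member rose, 79.0% of 62 in genes with 2 to 3, 50.9% of 116 in genes with 4 to 8, 29.8% of 141 in genes with 9 to 19 and 22.9% of 258 in genes with 20 or more. Within this length class the difference between genes with 1 to 3 and with 20 or more members changed by 0.58 between the genotypes (exact p = 0.1). Among peaks of 200 to 1200 bp the order was not strict, with 80.5%, 83.5%, 71.9%, 43.04% and 51.97% of members higher from the fewest to the most members per gene. Among peaks of 6000 bp or more, 0% rose in genes with 4 to 8 members and in genes with 9 to 19, and 1.08% in genes with 20 or more.

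A member needed a mean score over 30 across both genotypes, so a peak under that level in Ctrl could pass through the Kmt5b sKO libraries alone. This applied to 296 members, 58 of them in genes with 1 member, while 11 members passed through Ctrl alone. Of the 2233 members with a mean over 30 in both genotypes, 502 rose (22.5%) and 24 fell. Among these, 73.4% rose in genes with 1 member and 13.9% in genes with 20 or more. With these members alone, the genotypes differed by 0.56 in genes with 1 to 3 minus genes with 20 or more members (exact p = 0.1), against 0.68 with all members. This restriction was chosen after seeing the data. Under the same restriction, 748 of 2458 peaks (30.4%) rose in genes under 300 kb with 1 peak. That is the background for the 73.4% in long genes with 1 member. The share over all tested peaks was not taken under this restriction, so the 22.5% has no such background here.

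Genes under 300 kb followed the same order at lower rates. Of 2815 shorter genes with 1 tested peak chosen by the same rules on position, 36.5% rose, and of 1751 with 2 to 3 such peaks 21.8% did. With 4 to 8 peaks 9.26% rose, with 9 to 19 peaks 4.80% and with 20 or more 0%. For single-peak genes the mean log2(score + 1) was 5.08, 4.99 and 5.13 in Ctrl and 6.03, 6.13 and 6.01 in Kmt5b sKO when the gene was 300 kb or more. It was 6.44, 6.61 and 6.44 in Ctrl and 6.93, 6.99 and 6.95 in Kmt5b sKO when it was shorter. The long genes gained 0.53 more (exact p = 0.1, the smallest possible), and 0.25 more when the comparison was made within peak length classes (exact p = 0.1). Of these single peaks, 58 of the 122 in long genes (47.5%) and 350 of the 2815 in shorter genes (12.4%) passed the level of 30 through Kmt5b sKO alone. Over the 64 and 2458 peaks with a mean over 30 in both genotypes, the long genes gained 0.49 more, and 0.29 more within peak length classes (exact p = 0.1 for both).

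Over all members, by contrast, long and shorter genes were close. The mean log2(score + 1) of members minus that of shorter-gene peaks was -0.36, -0.39 and -0.35 in Ctrl and -0.30, -0.29 and -0.31 in Kmt5b sKO, a genotype difference of 0.06 (exact p = 0.1). Within peak length classes this difference was 0.02 (exact p = 0.3), and with the threshold at 200 kb it was 0.0003.

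**Figure D2:**
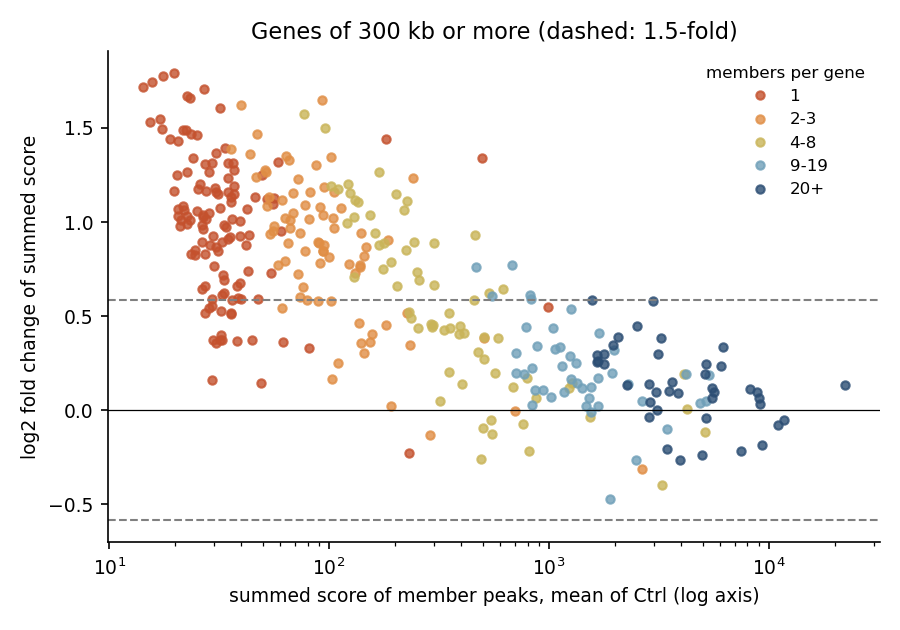
Each point is 1 of the 352 genes; the x axis gives the mean summed score of its members over the 3 Ctrl libraries on a log axis, the y axis the log2 fold change of the summed score (Kmt5b sKO over Ctrl), and colour the number of members. Genes with 1 to 3 members lie at the upper left, and the 41 genes with 20 or more lie at the right between -0.27 and 0.58, inside or on the dashed 1.5-fold lines.

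Position along the gene made little difference. Each gene was divided into 5 equal segments from the TSS to the 3′ end, which held 557, 449, 476, 536 and 522 members. From segment 1 to segment 5, 29.1%, 34.3%, 27.9%, 29.5% and 25.3% of members rose, and the median log2 fold change was 0.28, 0.35, 0.27, 0.30 and 0.27. The mean log2(score + 1) of segment 1 minus that of segment 5 was -0.13, -0.23 and -0.17 in Ctrl and -0.12, -0.14 and -0.17 in Kmt5b sKO. The groups overlapped, and the genotype difference was 0.04 (exact p = 0.4), so a shift along the gene was not detectable with 3 libraries each. The sign and size depended on the setting. The difference was 0.07 with genes of 200 kb or more and -0.04 with a mean score over 100 (exact p = 0.1 for both). Members within 100 kb of the TSS minus those over 300 kb away gave a genotype difference of -0.03 (exact p = 0.4). Across members, the fractional position and the log2 fold change had a Spearman rho of -0.02, and the distance from the TSS one of 0.01.

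**Figure D3:**
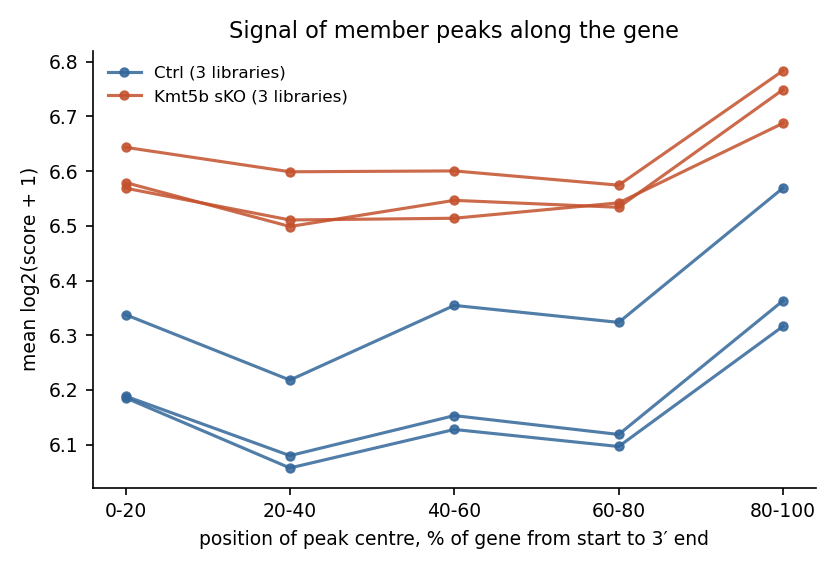
Mean log2(score + 1) of member peaks in 5 equal segments of the host gene, from the start (0 to 20% of the gene) to the 3′ end (80 to 100%), with 1 line for each library (3 Ctrl in blue, 3 Kmt5b sKO in red). Both genotypes were highest in the last segment, and the lines of Kmt5b sKO lie above those of Ctrl in every segment.

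Within the members, gains went with short, isolated peaks in repeat-rich intronic sequence. In the 5 length classes, which were 200 to 1200 bp, 1400 to 2000 bp, 2200 to 3000 bp, 3200 to 5800 bp and 6000 bp or more, 65.6%, 38.9%, 25.8%, 8.85% and 0.73% of members rose, against 67.8%, 47.5%, 26.2%, 12.8% and 4.27% of all tested peaks. Members with the nearest tested peak under 2 kb away rose in 9.15% of cases, those 2 to 10 kb away in 20.7%, those 10 to 50 kb away in 40.5% and those over 50 kb away in 76.1%. Only 330 members (12.99%) overlapped an exon of the host gene, against 49.2% of shorter-gene peaks, and 12.7% of these rose against 31.5% of the 2210 members with no host exon. The median share of soft-masked bases was 40.3% in members that rose, 20.96% in those not called and 17.5% in those that fell. Across members the log2 fold change had a Spearman rho of -0.56 with peak length, 0.48 with the soft-masked share and -0.25 with GC content. These features go together in the same peaks, and their separate parts were not tested. Members of 200 to 1200 bp had median Ctrl scores of 30, 29 and 28, near the level of 30 that a peak can pass through Kmt5b sKO alone. The median soft-masked share at this length was 44.2% in members and 50.75% in all tested peaks, so short repeat-rich peaks were not particular to long genes. The rates by distance and by exon were not set against all tested peaks.

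The 6 largest gains lay in Zfp697, A830018L16Rik, Agbl1, Luzp2, Pcdh15 and Trhde, none of them over an exon. The member at chr3:98405600-98406799 in the zinc finger gene Zfp697 had scores of 19, 0 and 8 in Ctrl and 79, 41 and 46 in Kmt5b sKO. Ctrl was low in all its libraries and the groups did not overlap (log2 fold change 3.26, SE 0.71, limma adjusted p = 7.97e-05). Its size depended on the library at 0, since it was 2.01 without Ctrl replicate 2 and 4.17 without Ctrl replicate 1.

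In A830018L16Rik the member at chr1:11915800-11917199, 502.4 kb from the TSS, had scores of 13, 8 and 18 in Ctrl and 73, 51 and 47 in Kmt5b sKO (log2 fold change 2.09, SE 0.45, limma adjusted p = 7.08e-05). The Agbl1 member at chr7:77120400-77121399 had 22, 17 and 22 against 68, 91 and 85 (1.95, SE 0.32, limma adjusted p = 8.14e-08). Agbl1 encodes a carboxypeptidase-like enzyme, and this peak lay at 99.6% of its length. In both peaks every Kmt5b sKO library lay above every Ctrl library.

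The members of Luzp2 (chr7:55150800-55152199), Pcdh15 (chr10:73847200-73848199) and Trhde (chr10:114621000-114621599) had Ctrl scores of 12 to 24 and Kmt5b sKO scores of 50 to 89. Their log2 fold changes were 1.79, 1.79 and 1.78. Pcdh15 encodes a protocadherin known from the inner ear and Trhde an ectoenzyme that cleaves thyrotropin-releasing hormone. All 6 gains had Ctrl means under 30, from 9 to 20.3, so these peaks were members only through the Kmt5b sKO libraries. They kept their call when any single library was left out, and the Zfp697 member lost it when each peak was given its own variance (limma adjusted p = 0.169).

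The 6 largest losses lay in Pard3, Fto, Sorcs2, Fam172a, Palld and Pde4d. The Pard3 member at chr8:127143800-127145799, in a gene for a cell polarity protein, had scores of 54, 49 and 37 in Ctrl and 23, 31 and 14 in Kmt5b sKO (log2 fold change -1.06, SE 0.39, limma adjusted p = 0.021). It was not called without Ctrl replicate 1. The Fto member at chr8:91411800-91413799, in the gene of an RNA demethylase, had 44, 73 and 51 against 41, 20 and 35 (-0.82, SE 0.32, limma adjusted p = 0.029). The groups did not overlap in either peak.

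Sorcs2 (chr5:36183200-36184399) had 43, 47 and 35 against 33, 34 and 11, and Fam172a (chr13:77725000-77726799) had 43, 56 and 51 against 28, 23 and 35. Palld, the gene of the actin-associated protein palladin, had 50, 66 and 50 against 43, 35 and 21 at chr8:61571600-61573199. Their log2 fold changes were -0.80, -0.79 and -0.77. The members of Fto, Sorcs2, Fam172a and Palld each lost their call without any 1 of several libraries. Without Ctrl replicate 2 they were at -0.61, -0.71, -0.71 and -0.64, and without Ctrl replicate 3 their limma adjusted p was 0.104, 0.193, 0.204 and 0.107. Fto and Fam172a also lost it without Kmt5b sKO replicate 2 (-0.52 and -0.65), Sorcs2 and Palld without Kmt5b sKO replicate 3 (-0.30 and -0.49), and Sorcs2 without Ctrl replicate 1. With a variance of each peak alone, the members of Pard3, Fto, Sorcs2 and Palld were not called.

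Pde4d held a long member that fell, at chr13:109936600-109946999, which overlapped an exon 1492 kb from the TSS. It had scores of 301, 370 and 312 in Ctrl and 189, 197 and 198 in Kmt5b sKO. The groups were far apart (log2 fold change -0.74, SE 0.16, limma adjusted p = 4.75e-05), and it was called lower whichever library was left out.

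**Figure D4:**
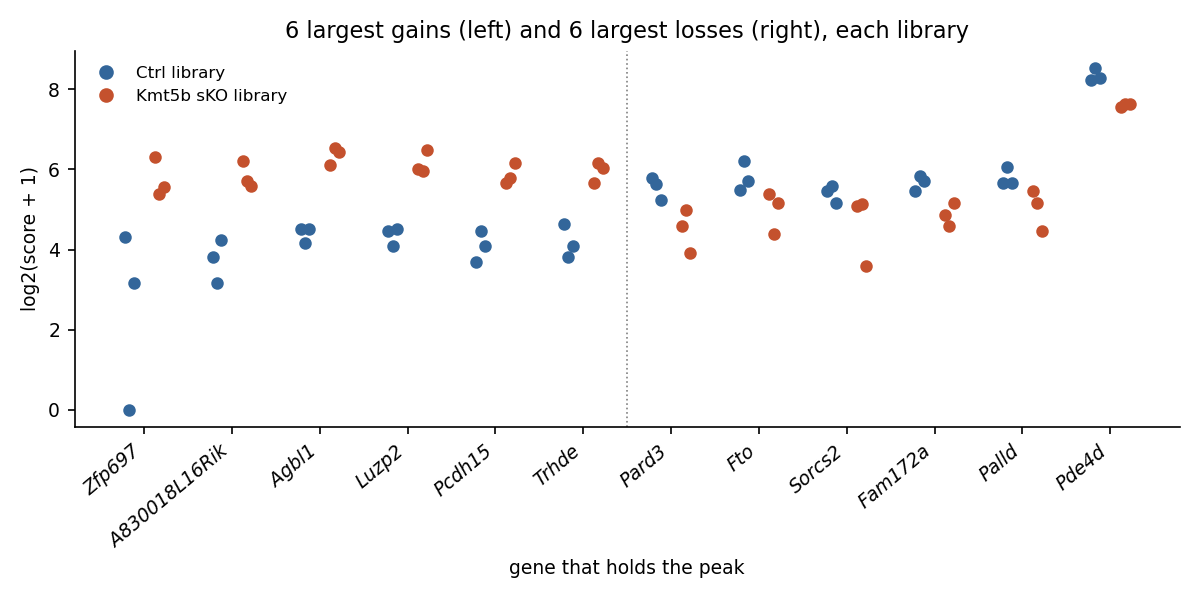
log2(score + 1) in each library (Ctrl blue, Kmt5b sKO red) for the 6 largest gains and the 6 largest losses among called members whose libraries did not overlap between genotypes; the x axis names the host gene. The gains have Ctrl scores of 24 or less in every library, and the losses are smaller than the gains.

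Pcdh15 (chr10:73099342-74649737, 1550 kb) held few peaks and rose throughout. Its 6 members, spread from 67.4 to 1372 kb from the TSS, were all called higher, with log2 fold changes of 0.67 to 1.79. The summed score was 215, 219 and 224 in Ctrl and 435, 469 and 477 in Kmt5b sKO. The Ctrl libraries were nearly equal and the groups did not overlap (log2 fold change 1.07, SE 0.15, limma adjusted p = 1.44e-10).

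Agbl1 (chr7:76229887-77124698) and A830018L16Rik (chr1:11414105-11975901) each held 4 members, and all 8 were called higher. The summed score of Agbl1 was 113, 86 and 90 in Ctrl and 266, 302 and 251 in Kmt5b sKO (log2 fold change 1.499, SE 0.17). That of A830018L16Rik was 69, 77 and 84 against 262, 199 and 233 (1.58, SE 0.18). Neither gene had overlapping groups. Their Ctrl sums average under 30 per member, so members of both genes passed the level of 30 only through the Kmt5b sKO libraries. That all 8 rose is therefore partly set by the filter. In 152 of the 352 genes every member rose, and 97 of these genes held 1 member. Of the 122 members in genes with 1 member, 58 had passed that level through Kmt5b sKO alone.

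Exoc4 (chr6:33249085-33973979) held the most called members after Galnt2, with 17 of 37 higher and 0 lower. They lay in a stretch from 49.9 to 238.0 kb and in another from 572.4 to 677.3 kb from the TSS, with 1 at 394.7 kb between them. The summed score was 2956, 3742 and 3050 in Ctrl and 4133, 4450 and 4078 in Kmt5b sKO. The groups did not overlap, but the change of 0.38 on the log2 scale (SE 0.12, limma adjusted p = 0.0053) was below 1.5-fold, so the gene was not called. It was -0.08 after centring on the median peak.

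Rbfox1 (chr16:5885355-7411526), which encodes an RNA-binding splicing regulator, had 14 of 25 members higher. All 25 lay between 1003 and 1507 kb from the TSS of its 1526 kb model. The summed score was 1309, 1925 and 1492 in Ctrl and 2167, 2503 and 2339 in Kmt5b sKO (log2 fold change 0.58, SE 0.12, limma adjusted p = 3.34e-05). Frmd4a, the gene of a FERM-domain scaffold protein, had 9 of 22 members higher, and its summed score was 2935, 3162 and 2795 against 4332, 4536 and 4408 (0.58, SE 0.12). The groups did not overlap in either gene, and both missed the 1.5-fold rule with all libraries and passed it without Ctrl replicate 2 (0.74 and 0.63) or without Kmt5b sKO replicate 1 (0.64 and 0.59). In Gphn, the gene of the synaptic scaffold gephyrin, 10 of 27 members rose and 1 fell, and the summed log2 fold change was 0.26 (SE 0.12). Over all tested peaks 32.9% rose, and over members in genes with 20 or more members 16.3%. Exoc4, Rbfox1, Frmd4a and Gphn were picked for their number of members called higher, a count that favours genes with many peaks.

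Pde4d (chr13:108449948-109953461) was heavily covered and hardly changed as a whole. Its 48 members lay between 752.3 and 1492 kb from the TSS, and 3 rose while 2 fell. The summed score was 10248, 12206 and 10480 in Ctrl and 10188, 10865 and 10021 in Kmt5b sKO. The groups overlapped (log2 fold change -0.08, SE 0.11, limma adjusted p = 0.59).

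Dpp6 (chr5:26817203-27727505), which encodes an auxiliary subunit of potassium channels, held the most members called lower. Of its 13 members 3 fell and 0 rose, and all lay between 89.1 and 179.1 kb from the TSS of a gene of 910.3 kb. The summed score was 1402, 2568 and 1694 in Ctrl and 1249, 1381 and 1325 in Kmt5b sKO. The groups did not overlap, and the log2 fold change was -0.47 (SE 0.13, limma adjusted p = 0.0011), short of the 1.5-fold rule. Ctrl replicate 2 carried much of this value, which was -0.23 without it and -0.66, called lower, without Ctrl replicate 1.

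**Figure D5:**
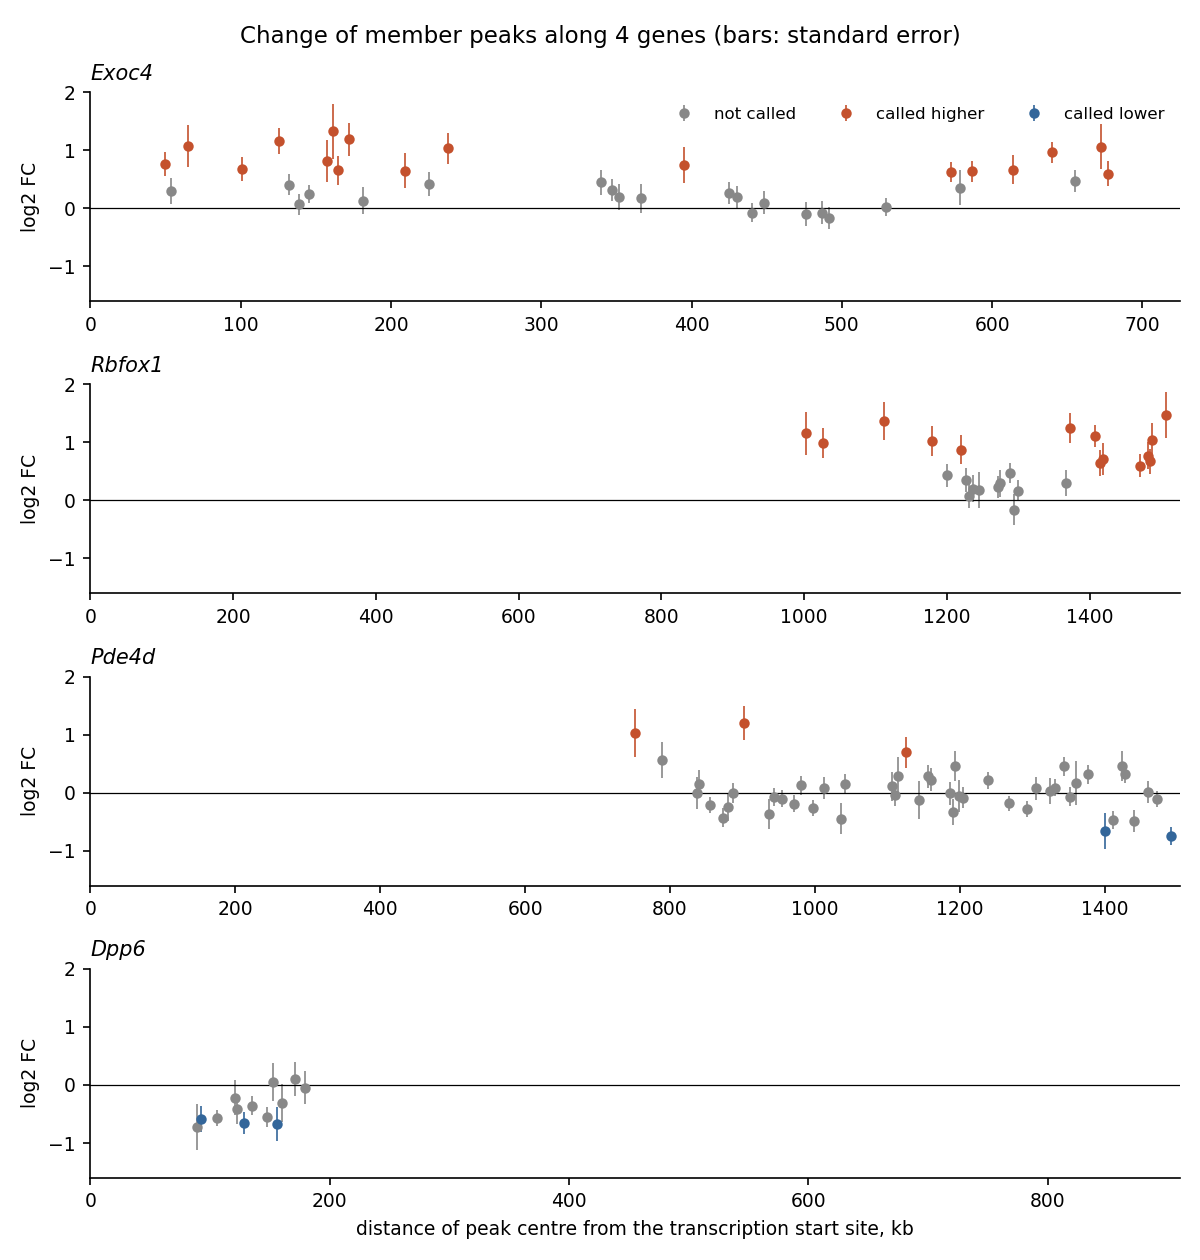
log2 fold change (Kmt5b sKO over Ctrl) of each member against the distance of its centre from the transcription start site in kb, for Exoc4, Rbfox1, Pde4d and Dpp6; error bars are standard errors of the limma fit and colours give the call. The x axis spans the whole gene: members of Rbfox1 and Pde4d fill the far part of the gene, and those of Dpp6 a stretch of 90.0 kb.

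The other genes with 2 members called lower were not called on the summed score. Tln2, which encodes the focal adhesion protein talin 2, had 3405, 4669 and 3729 in Ctrl and 3202, 3433 and 3097 in Kmt5b sKO (log2 fold change -0.27, SE 0.12). Psd3, the gene of an exchange factor for ARF GTPases, had 2188, 3016 and 2302 against 2016, 2136 and 2020 (-0.27, SE 0.12), and Pard3 had 4664, 5659 and 4610 against 4124, 4375 and 4082 (-0.24, SE 0.12). The groups overlapped in Tln2 and not in Psd3 and Pard3. Akap6, the gene of a kinase anchoring protein of striated muscle, had 2584, 4630 and 3133 against 2756, 3007 and 2926, and its log2 fold change of -0.21 became 0.02 without Ctrl replicate 2. Without that library Tln2 was at -0.14, Psd3 at -0.13, Pard3 at -0.15 and Tcf4 at -0.08. After centring on the median peak, Dpp6, Tln2, Psd3, Pard3, Akap6 and Tcf4 were among the 14 genes called lower.

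Genes with 20 or more members were otherwise close to each other in their change. Their log2 fold changes ranged from -0.27 to 0.58 with a median of 0.12, 32 of the 41 were above 0, and none passed both thresholds. At a limma adjusted p under 0.1 without the 1.5-fold rule, 15 were higher and 2 lower. Ptprd, a receptor tyrosine phosphatase gene of 2271 kb and the longest gene after Galnt2 and Fgfr2, had summed scores of 2758, 3129 and 2680 in Ctrl and 3034, 3345 and 3034 in Kmt5b sKO, which overlapped. The signs in this group followed the scaling, since 15 of 41 were above 0 when every library was set to the same total, 10 with quantile-normalized values and 2 with libraries centred at the median peak.

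Lists of genes known to be long were read out. Of 24 genes with members among transcription factors and chromatin genes, 9 rose (37.5%), and of their 206 members 32 rose and 2 fell. Those with the most members were Tcf4, a partner of myogenic transcription factors, and the DNA-binding factors Cux1 and Zbtb20. Tcf4 had summed scores of 8440, 10650 and 8747 in Ctrl and 8152, 8115 and 8046 in Kmt5b sKO, with no overlap and a log2 fold change of -0.19 (SE 0.11) that was not called. In adhesion, guidance and extracellular matrix genes 11 of 18 rose (61.1%), with 42 of 137 members higher and 0 lower. Lama2, Ptprd and Cdh13, which encodes T-cadherin, had the most members there and were not called.

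Among cytoskeleton and sarcolemma genes 7 of 18 rose (38.9%), with 60 of 268 members higher and 1 lower. Macf1, which links microtubules to actin, had 4381, 6127 and 4867 in Ctrl and 5720, 5953 and 5747 in Kmt5b sKO, which overlapped. Among kinases, phosphodiesterases and regulators of small GTPases 13 of 24 rose (54.2%), with 38 of 197 members higher and 5 lower, and the genes with the most members, Pde4d, Plcb4 and Arhgap24, were not called. Among common fragile site genes 12 of 19 rose (63.2%), with 58 of 179 members higher and 3 lower. None of the lists held a gene that fell. The background over all genes tested was 27.5%, and over the 352 long genes 54.8%. For single peaks, 15.5% to 32.4% of the members in a list rose, against 29.1% of all members and 32.9% of all tested peaks. No list thus exceeded the share over all tested peaks, of which 0.883% fell.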

How the data were processed

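S9.6 DRIP-seq was measured in 3 Ctrl and 3 Kmt5b sKO libraries of cultured MuSCs, grouped by the genotype labels. Per the submitters' processing notes and the study's methods, the authors trimmed reads with Trimmomatic 0.39, aligned them with STAR 2.7.3a to mm10 (GRCm38), removed duplicates with Picard 2.21.7, called peaks against input with Epic2, removed blacklisted regions and unified the peaks. The score deposited by the authors is the signal of a union peak scaled by the reads that mapped to Drosophila spike-in DNA and rounded to a whole number. Because the values are scores, a count model was not run and a single peak has no counting interval here. The read totals that the study states for its libraries were not used. Distances to the TSS, in base pairs, and gene models were those of the deposited table (Ensembl, as annotated by the authors). Peak coordinates are those of the table, and a start may lie 1 base before the one a genome browser shows.

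Log2(score + 1) was fitted by genotype in limma 3.58.1 (R 4.3.3), with moderated variances that followed the level of the feature, two-sided, over all 25815 tested peaks or all 6198 genes, with Benjamini-Hochberg adjustment. A fold change on this scale understates the change of low peaks. The prior degrees of freedom were infinite, so variances came from the trend with level. On simulated data of 25815 peaks with 200 changed by 1.5 on the log2 scale, 191 were called, as were 12 unchanged peaks, and 0 were called with none changed. The simulated peaks were drawn independently with a spread taken from the trend with level. They held no shift shared by a library, so they do not give the rate of false calls in these data. Values per library were compared with exact permutation tests. Sequence, GC content and soft-masked share came from the GRCm38 reference, other annotation from GENCODE vM21 and RefSeq, which was matched by symbol, chromosome and overlap. Python 3.11.15 and scipy 1.17.1 were used.

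The members, gene lists and tests were chosen with earlier results of these data known. The named genes were the 8 with the most members, the 6 with the most members higher and the 6 with the most lower, the hosts of the 6 called members that rose most and the 6 that fell most with separated libraries, the 3 longest, and the 3 with the most members in each list. A gene that this rule names is not reported here. The comparisons by number of members and the RefSeq spans were chosen after seeing the data. The alternatives were other pseudocounts, level filters, scalings, thresholds, gene lengths, a variance of each feature alone, peaks overlapping no other gene, a replicate block and leaving out each library in turn. Input libraries and the authors' own comparison columns were not used.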

Additional observations from a re-analysis of the deposited data

Results flagged for a closer look

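Peaks on the X chromosome were outside the tests above but met the same rules on position in genes of 300 kb or more in 25 cases. They lay in 7 genes, among them Cask, Dmd and Mid1. The mean score of these peaks was 110.4, 165.0 and 117.6 in Ctrl and 175.2, 186.7 and 181.9 in Kmt5b sKO. The groups did not overlap, and the ratio of Kmt5b sKO to Ctrl was 1.384 (exact permutation test, two-sided, p = 0.1, the smallest possible), against 1.12 for the autosomal members. The median log2 fold change was 0.25 over the 25 peaks and 0.29 over the autosomal members. Without Ctrl replicate 2 the ratios were 1.59 and 1.19. The difference between the X-linked and autosomal ratios was not tested, and the sex of the animals behind each library is not given in the sources used here. Dmd, the dystrophin gene of 2257 kb, held 2 of these peaks with summed scores of 439, 984 and 606 in Ctrl and 1290, 1394 and 1364 in Kmt5b sKO, which was 53.5% of the rise in summed score. Without Dmd the ratio was 1.22.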

How the results depend on the processing

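Calls followed the scaling of the libraries, which by construction removes a shift that all peaks share. With every library set to the same total, 457 members rose and 94 fell, 2 genes fell and the median log2 fold change of members was 0.088. After centring on the median peak, 209 members rose and 333 fell, 87 genes rose and 14 fell, and the median was -0.17. After quantile normalization these were 153, 252, 59, 2 and -0.084. A fold change over 2 left 302 members higher, 1 lower and 109 genes higher. With the variance of each feature alone, 433 members rose and 8 fell, and with a pseudocount of 10, 16 fell. With a mean score over 100, which tests fewer peaks, 72 members rose and 10 fell, 14 genes rose and the median was 0.10. There the genotype difference was -0.043 for segment 1 minus segment 5 and -0.026 for members minus shorter-gene peaks (exact p = 0.1 for both), and the cause was not tested. With genes of 500 kb or more, 395 members rose, 11 fell, 103 genes rose and the segment difference was -0.029. In distance from the TSS it was -0.028. With genes of 200 kb or more, 66 members and 2 genes fell. At that length the segment difference was 0.074 (exact p = 0.1), and that of members minus shorter-gene peaks was 0.0003. Leaving out 1 library gave 620 to 778 members higher, 6 to 40 lower, and 0 to 1 genes lower (Dpp6 without Ctrl replicate 1). The differences by number of members kept their sign in the alternatives run for them. They ranged from 0.47 to 0.73 for few minus many members and from 0.25 to 0.59 for long minus shorter single-peak genes. They were not run with a mean score over 100, no level filter, other gene lengths or peaks overlapping no other gene. Gphn was -0.16 with a mean score over 100, -0.20 after centring and -0.19 after quantile normalization, Exoc4 was -0.080 after centring, and Akap6 ranged from -0.40 to 0.025 with 1 library left out. The labels do not say whether equal replicate numbers mark pairs. Deviations from the group means had correlations of -0.01, 0.01 and -0.03 between same-numbered libraries. No shared pattern was thus visible, which cannot show how the samples were prepared. With the replicate block 736 members rose and 27 fell, 193 genes rose and 0 fell. For values per library, sign flips over the pairs of that block allow no p under 0.25. The reads behind each score were not used here, so no limit from depth is given, and 3 libraries of each genotype allow no exact p under 0.1.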
